A study of Mus musculus with 12 samples.

Results

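Chemokines of the injured mouse kidney were followed in 12 kidneys, as a set of 9 chemokine genes and the gene of a macrophage growth factor. These 10 genes were chosen by their symbols, Ccl2, Ccl7, Ccl28, Cxcl1, Cxcl2, Cxcl10, Cxcl12, Cxcl16, Cx3cl1 and Csf1, among the 23420 genes of the count table, and all 10 were found in it, so members without a single read are described too. RNA was sequenced from whole kidneys of adult male C57BL/6J mice, 4 of them controls and 8 of them ischemic kidneys taken 24 h after their pedicle had been clamped for 20 min. The controls are kidneys removed by nephrectomy according to the methods of the study, whose results text refers to sham surgery. The labels give that clamping for the control kidneys as well. For the ischemic kidneys, title and group field disagree. Ischemia set A holds the 4 kidneys with a title of anaesthesia but a group field of conscious mice, ischemia set B the 4 with the opposite, so no direction could be given to anaesthesia. The clamp was placed around the pedicle of the ischemic mice by surgery beforehand. The design text of the series counts 4 mice in each group, so each kidney was taken as a separate mouse.

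Chemokines are small secreted proteins that guide leukocytes along a gradient through receptors coupled to G proteins. Ccl2 and Ccl7 attract monocytes through Ccr2, Cxcl1 and Cxcl2 attract neutrophils through Cxcr2, and Cxcl10 attracts activated T cells through Cxcr3. Cxcl12 binds Cxcr4 and the scavenging receptor Ackr3, and is made at rest by stromal, vascular and epithelial cells. Cxcl16 and Cx3cl1 are made as membrane-bound proteins, are shed by the proteases Adam10 and Adam17, and bind Cxcr6 and Cx3cr1. Csf1, the growth factor of macrophages, acts through Csf1r, which it shares with Il34. In injured tubules, several of these genes are known targets of the transcription factor NF-kB.

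The depth was between 15367342 and 44793350 counts per kidney, and between 10116 and 11574 genes had a count in a kidney. A level of 3 counts was taken as the detection floor, which corresponds to between 0.067 and 0.195 CPM (counts scaled to the size of the library) and covers counting error only. The labels of control and ischemia were checked on Havcr1, the tubular injury marker also known as KIM-1, which was at the floor in the 4 controls. Its level lay between 3.98 and 15.0 CPM in set A, and set B ranged from 0.58 to 24.9 CPM. Havcr1 passed the threshold as higher in either set (adjusted p = 5.47e-06 in A and 4.58e-06 in B, edgeR's quasi-likelihood test, adjusted after Benjamini-Hochberg over 11664 genes). Markers of tubules are present in all groups, with a summed level of 9 genes between 8270 and 9100 CPM in the controls, between 1580 and 1950 CPM for set A and between 1720 and 2150 CPM for set B.

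The genes lie in groups on the mm10 genome, in the positions of the GENCODE annotation. Ccl2 (chr11:82035571-82037453, plus strand, overlapping Gm17268) and Ccl7 (chr11:82045712-82047525, plus strand) are 8258 bases apart. Cxcl1 (chr5:90891241-90893115, plus strand) and Cxcl2 (chr5:90903871-90905938, plus strand) are 10755 bases apart, and Cxcl10 (chr5:92346638-92348889, minus strand) is on the same chromosome and overlaps Art3. Cxcl16 (chr11:70453983-70459984, minus strand) overlaps Zmynd15. The others lie apart from each other and from these, Cxcl12 at chr6:117168535-117181367 on the plus strand, Cx3cl1 at chr8:94772009-94782427 on the plus strand, Csf1 at chr3:107741048-107760469 on the minus strand and Ccl28 at chr13:119623819-119654359 on the plus strand. The values are sums over whole genes, so isoforms could not be told apart.

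The 250 bases before the transcription start that RefSeq gives on GRCm38.p6, which can differ from the GENCODE start, were available for 7 of the 10 members and are shown for 4 of them. Cxcl1, Cxcl2 and Csf1 hold the letters of a kappaB site, to which NF-kB binds, and Cxcl12 is the member with the highest level. The windows are chr5:90890995-90891244 for Cxcl1, chr5:90903649-90903898 for Cxcl2, chr3:107760470-107760719 for Csf1 and chr6:117168285-117168534 for Cxcl12, each printed 5′ to 3′ on the strand of the gene.
Cxcl1: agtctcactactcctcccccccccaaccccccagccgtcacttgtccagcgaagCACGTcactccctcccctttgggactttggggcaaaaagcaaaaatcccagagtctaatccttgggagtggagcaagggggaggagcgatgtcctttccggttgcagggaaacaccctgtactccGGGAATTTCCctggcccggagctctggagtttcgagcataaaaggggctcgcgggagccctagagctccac
Cxcl2: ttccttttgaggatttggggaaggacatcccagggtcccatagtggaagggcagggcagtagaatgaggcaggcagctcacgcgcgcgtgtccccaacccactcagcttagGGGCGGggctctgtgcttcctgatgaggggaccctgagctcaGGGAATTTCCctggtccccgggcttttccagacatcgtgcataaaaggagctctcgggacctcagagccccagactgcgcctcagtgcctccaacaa
Csf1: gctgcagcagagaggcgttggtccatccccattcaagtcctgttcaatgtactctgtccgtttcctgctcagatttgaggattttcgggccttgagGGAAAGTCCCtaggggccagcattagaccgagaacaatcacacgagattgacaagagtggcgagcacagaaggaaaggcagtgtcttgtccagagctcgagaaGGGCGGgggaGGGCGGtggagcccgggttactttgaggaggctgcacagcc
Cxcl12: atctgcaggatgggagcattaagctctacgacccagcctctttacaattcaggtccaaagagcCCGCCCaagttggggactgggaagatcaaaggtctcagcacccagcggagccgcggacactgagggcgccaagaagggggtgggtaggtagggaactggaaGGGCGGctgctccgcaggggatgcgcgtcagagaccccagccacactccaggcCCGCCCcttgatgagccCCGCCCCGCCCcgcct
Capitals mark matches to the motifs searched on both strands. The kappaB site was searched as GGGA, any base and TTTCC, the AP-1 site as TGANTCA, the core of the hypoxia response element as ACGTG, the TATA box as TATAAA and the GC box as GGGCGG. The kappaB letters GGGAATTTCC ended 62 bases before the start of Cxcl1 and 88 bases before that of Cxcl2, and Csf1 held GGAAAGTCCC, its match on the other strand, ending 145 bases before the start. They were in 3 of the 7 members with a window and in 0.356% of 32851 promoter windows of the same length. Cxcl12 held 5 GC boxes, of which 2 share a base, and none of the other motifs, and 32.7% of all windows held at least 1 GC box. The AP-1 letters were in Cxcl10 alone among the members (6.75% of all windows), the hypoxia core in Cxcl1 alone (16.6%), and the TATA letters in Cx3cl1 alone (12.4%). The Cx3cl1 window (chr8:94771930-94772179) reaches past the GENCODE start at 94772009, and its TATA letters ended 1 base before the RefSeq start. These are matches of letters, and no binding was measured.

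Across the 10 members, a single gene carried most of the signal, and it fell. Cxcl12 was lower in both ischemic sets than in the controls, while the classical inflammatory chemokines Ccl2 and Ccl7 were listed at 0 in all 12 kidneys. In the controls, Cxcl12 was at 90.3, 87.5, 126.0 and 108.0 CPM. In set A, it was at 33.7, 11.8, 32.1 and 18.8 CPM, and in set B at 17.8, 15.0, 22.9 and 15.7 CPM. No ischemic kidney reached the lowest control. The mean was 103.0 ± 18 CPM (SD, n = 4) in the controls, 24.1 ± 10.6 CPM for set A and 17.8 ± 3.56 CPM for set B, a level 4.28 times as high in the controls as in set A and 5.78 times as high as in set B. The log2 fold change was -2.09 ± 0.28 (SE) in set A (adjusted p = 1.35e-05, edgeR's quasi-likelihood test) and -2.53 ± 0.29 in set B (adjusted p = 1.82e-06). Both comparisons share the 4 control kidneys. In whole kidneys, fewer cells of a type and less RNA per cell cannot be told apart.

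**Figure D1:**
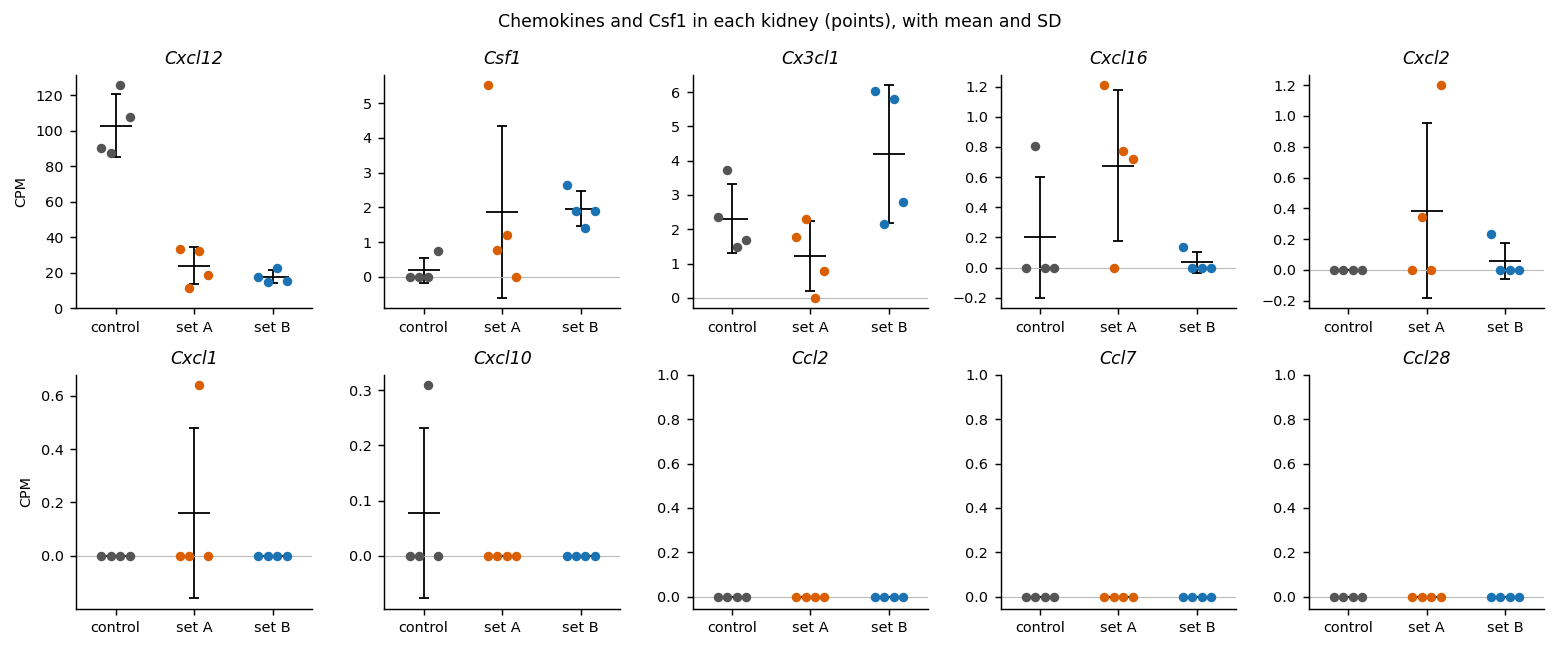
CPM (vertical axes, each with its own scale) of the 10 members in each kidney of the control group, ischemia set A and ischemia set B, with points for kidneys and bars for mean and SD. Cxcl12 is the only panel in which the 8 ischemic kidneys all lie below the 4 controls, and Ccl2, Ccl7 and Ccl28 are at 0 throughout.

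Of the 10 members, 4 passed the filter on low counts (Cxcl12, Csf1, Cx3cl1 and Cxcl16), and 1 of these 4, Cxcl12, passed the threshold, as lower, in each set. Over all genes tested, the share that passed was 22.3% in set A (11.7% lower) and 22.8% in set B (11.9% lower). Between set B and set A, 0 of the 4 members passed, where 0.00857% of all genes tested did, and 0 had an unadjusted p below 0.05. DESeq2 and limma-trend called 0 of them as well. Cxcl12 differed between the sets by -0.44 ± 0.28 on the log2 scale (unadjusted p = 0.129, edgeR's quasi-likelihood test), with every kidney of set B inside the range of set A.

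Per kilobase of exon, Cxcl12 was the highest member in every group, at 12.6 ± 2.21 CPM per kb in the controls, 2.95 ± 1.3 for set A and 2.18 ± 0.436 for set B. Cx3cl1 came next in the controls, at 0.587 ± 0.257 CPM per kb. In set A, Csf1 (0.355 ± 0.47 CPM per kb), Cx3cl1 (0.31 ± 0.262) and Cxcl16 (0.223) lay within the spread between kidneys. In set B, Cx3cl1 was at 1.07 ± 0.511 CPM per kb and Csf1 at 0.371 ± 0.0955. In each group, the members not named here were below 0.2 CPM per kb.

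Csf1, the growth factor of macrophages, had no count in 3 controls and 28 counts in the other. Its counts were 174, 18, 55 and 0 in set A, while set B had 78, 30, 29 and 30. Each kidney of set B was above every control, while set A overlapped the controls. The mean was 0.183 ± 0.366 CPM in the controls, 1.88 ± 2.48 for set A and 1.96 ± 0.504 for set B. The log2 fold change was 3.31 ± 1.99 in set A (adjusted p = 0.289, edgeR's quasi-likelihood test) and 3.37 ± 2.0 in set B (adjusted p = 0.274), and neither passed. Without set A replicate 1, which held 174 counts, the value for set A was 1.84 (adjusted p = 0.693). Both sets passed once control replicate 4, the control with counts, was left out, which leaves 3 controls at 0 and fitted values that are no measure of size (8.62, adjusted p = 0.0275 in set A, and 8.66, adjusted p = 0.0269 in set B), and in set B the gene passed in limma-trend (3.88, adjusted p = 0.0357).

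Cx3cl1, the membrane-bound ligand of Cx3cr1, had 49, 143, 38 and 65 counts in the controls. Set A had 56, 54, 0 and 13 counts, set B 179, 34, 120 and 44. The mean was 2.31 ± 1.01 CPM in the controls, 1.22 ± 1.03 for set A and 4.19 ± 2.01 for set B, and the kidneys of all groups overlapped. The log2 fold change was -0.92 ± 1.17 in set A (adjusted p = 0.697, edgeR's quasi-likelihood test) and 0.86 ± 1.16 in set B (adjusted p = 0.704). Set B differed from set A by 1.78 ± 1.19 on the log2 scale, with an unadjusted p of 0.151 in the same model.

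Cxcl16, the ligand of Cxcr6, had 31 counts in control replicate 2 and none in the other controls. In set A it had 38, 0, 35 and 12 counts, and in set B 4 counts in replicate 1 and none elsewhere. The groups overlapped, and the log2 fold change was 1.71 ± 2.49 in set A (adjusted p = 0.747, edgeR's quasi-likelihood test) and -2.34 ± 2.54 in set B (adjusted p = 0.615). Without control replicate 2, the value for set B turned to 3.09 (adjusted p = 0.463).

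The ligands of Cxcr2 were seen in few kidneys. Cxcl1 had 29 counts (0.639 CPM) in set A replicate 3 and none in the other 11 kidneys. Cxcl2 had 8 counts in set A replicate 2, 20 in set A replicate 4 and 7 in set B replicate 1, and none in the controls. The kidney with Cxcl1 had no Cxcl2. Cxcl10, induced by interferon, had 8 counts in control replicate 3 and none in the other 11 kidneys. Ccl2, Ccl7 and Ccl28, of which Ccl28 is a ligand of mucosal epithelia that binds Ccr3 and Ccr10, had no count in any kidney. The 6 members without a test were left out by the filter on low counts, and no difference between groups could be shown for them. Without the filter, Cxcl1, Cxcl2 and Cxcl10 entered the test and none of them passed, with the lowest adjusted p for Cxcl2 in set A (0.214).

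Zeros in this table were frequent beside sizeable counts, and this bears on every member at 0. Among values whose 3 other kidneys of the group all had between 20 and 100 counts, 911 of 5084 (17.9%) were 0, with 17.4% in the controls, 17.8% in set A and, for set B, 18.5%. A median of 113 genes per kidney had 1 to 3 counts and 177.5 had 4 to 10, against 847 with 11 to 30 and 1867 with 31 to 100. A gene at 0 is therefore described here as listed at 0, and the count floor does not bound its level. Over the whole count table, 39.3% of genes were at 0 in all 12 kidneys. Among genes matched to a length, this share was 81.3% for exon lengths under 1 kb, 56.1% for 1 to 2 kb, 35.9% for 2 to 4 kb and 15.3% for 4 kb or more. Ccl7 (0.801 kb) and Ccl2 (1.138 kb) are the shortest members, Ccl28 measures 4.844 kb, and Cxcl12, at 8.176 kb, is the longest. The part of length in the members' zeros was not tested.

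**Figure D2:**
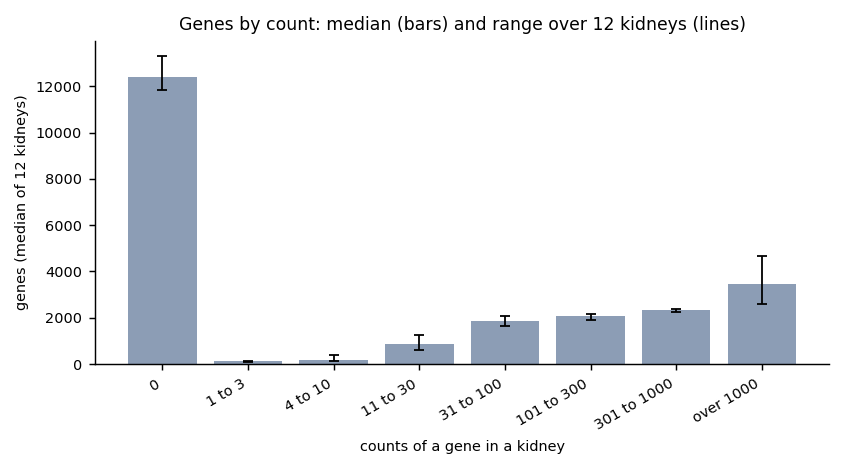
Number of genes (vertical axis) by the count of a gene in a kidney (horizontal axis), with bars for the median and lines for the range over the 12 kidneys. The classes of 1 to 3 and 4 to 10 counts hold a median of 113 and 177.5 genes, fewer than every higher class.

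The receptors of the members were followed next, as they show on which side of each pair a signal was measured. Of 11 receptors, Ccr1, Ccr3, Ccr10, Cxcr1, Cxcr3 and Cxcr6 had no count in any kidney. Ccr2, the receptor of Ccl2 and Ccl7, had 18 counts in control replicate 2 and 28 in set A replicate 3. Cxcr2, the receptor of Cxcl1 and Cxcl2, had 24 counts in set A replicate 3, the kidney with Cxcl1, and 12 and 42 in set B replicates 1 and 4. Cx3cr1 had 8 counts in set B replicate 1. Set A replicate 3 was the deepest of the 12 libraries, at 44793350 counts, and set B replicate 1 the deepest of its set, at 29905140 counts. The 2 receptors that passed the filter were Csf1r and Cxcr4, and 1 of them passed the threshold in each set, as lower.

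Csf1r, the receptor of Csf1 on macrophages, was at 40.7, 53.3, 62.7 and 51.5 CPM in the controls, at 17.9, 7.96, 18.1 and 10.2 CPM in set A, and at 7.95, 10.5, 19.5 and 4.19 CPM in set B. All ischemic kidneys lay below all controls. Csf1r fell by 1.94 ± 0.39 on the log2 scale in set A (adjusted p = 0.000816, edgeR's quasi-likelihood test) and by 2.3 ± 0.39 in set B (adjusted p = 0.000179). Il34, the other ligand of Csf1r, was at 2.04 ± 0.611 CPM in the controls, 7.86 ± 4.39 for set A and 5.71 ± 1.8 for set B, with each ischemic kidney above each control. Il34 rose in set A (1.95 ± 0.62, adjusted p = 0.0284), a call lost without control replicate 1, 2 or 4 or set A replicate 3 or 4 (adjusted p between 0.0567 and 0.171), and gave 1.49 ± 0.61 in set B (adjusted p = 0.0931), where DESeq2 called it (1.52, adjusted p = 0.025). The growth factors Csf2 and Csf3 had no count in any kidney.

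Cxcr4, the signalling receptor of Cxcl12, was at 2.3, 3.2, 1.23 and 0.0 CPM in the controls, at 11.9, 5.99, 3.55 and 11.4 CPM in set A and at 4.31, 6.39, 6.19 and 15.0 CPM in set B. Each ischemic kidney was above each control. The log2 fold change was 2.28 ± 0.91 in set A (adjusted p = 0.0846, edgeR's quasi-likelihood test) and 2.24 ± 0.91 in set B (adjusted p = 0.0886), which did not pass. DESeq2 called it in both sets (adjusted p = 0.0395 and 0.0417), and so did limma-trend (adjusted p = 0.0279 and 0.0291). Ackr3, which removes Cxcl12 without G protein signalling and is listed under its older symbol Cxcr7, was at 109.0 ± 22.0 CPM in the controls, 73.4 ± 21.1 for set A and 76.7 ± 37.3 for set B. It gave -0.57 ± 0.27 in set A (adjusted p = 0.147) and -0.51 ± 0.27 in set B (adjusted p = 0.203), the latter passing without set B replicate 1 (-0.91, adjusted p = 0.00821).

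Within each kidney, the receptors of Cxcl12 were set against the ligand by their levels per kilobase. The ratio of Cxcr4 to Cxcl12 was between 0 and 0.165 in the controls, between 0.499 and 2.75 for set A and between 1.09 and 4.34 for set B. The ratio of Ackr3 to Cxcl12 was between 1.79 and 3.95 in the controls, between 4.08 and 21.3 for set A and between 7.1 and 17.8 for set B. Neither ratio overlapped between controls and ischemic kidneys. The fall of Cxcl12 enters both ratios, and no test was made of them.

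**Figure D3:**
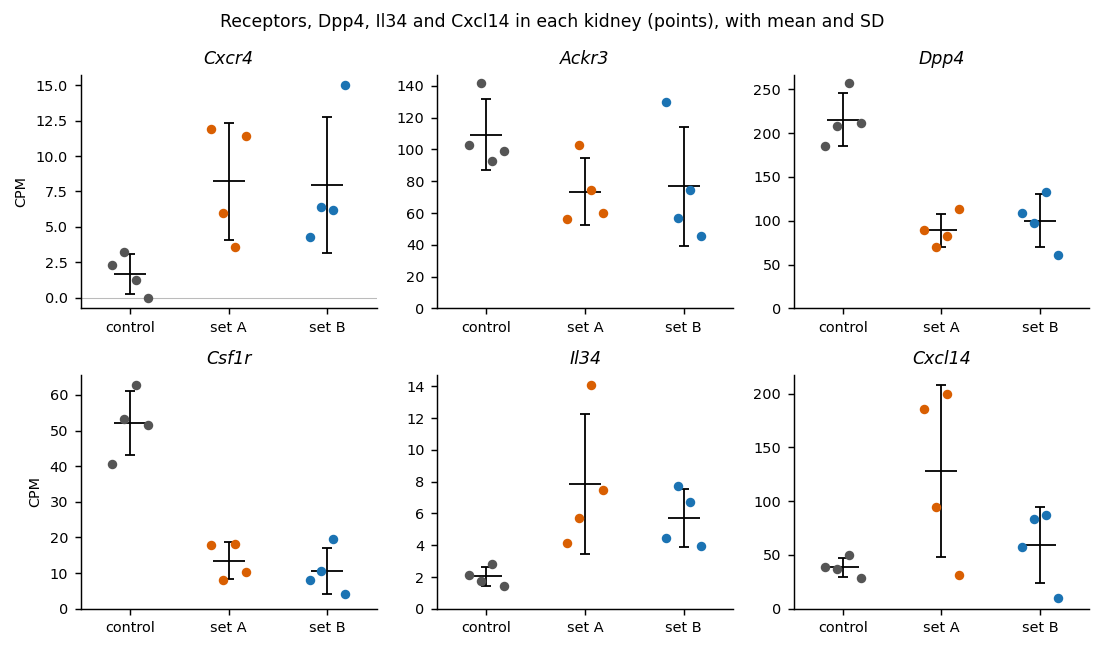
CPM (vertical axes, each with its own scale) of the receptors Cxcr4, Ackr3 and Csf1r, the protease Dpp4, the growth factor Il34 and the chemokine Cxcl14 in each kidney, with points for kidneys and bars for mean and SD. Csf1r and Dpp4 are lower in all ischemic kidneys than in the controls, and Cxcr4 and Il34 are higher in all of them.

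Among 9 genes that cleave, shed or hold chemokines, 1 was higher and 2 were lower in set A, and 2 were higher and 2 lower in set B, beside 22.3% and 22.8% called over all genes tested. Without 1 kidney, the number called was 2 to 3 in set A, while set B had 2 to 4. The genes lost were Ext1, which elongates heparan sulfate (without control replicate 3, set A replicate 1 or 3 for set A, and without control replicate 3 or set B replicate 4 for set B), and the syndecan Sdc4, called in set B (without control replicate 2, 3 or 4 or set B replicate 3 or 4, and also without the filter). The median log2 fold change of these 9 was 0.12 for set A and -0.07 for set B, beside -0.02 over all genes tested in both. Dpp4, a brush border peptidase that inactivates Cxcl12 and Cxcl10, was at 215.0 ± 29.9 CPM in the controls, 88.9 ± 18.3 for set A and 100 ± 30 for set B. It fell by 1.28 ± 0.2 on the log2 scale in set A (adjusted p = 9.33e-05, edgeR's quasi-likelihood test) and by 1.1 ± 0.2 in set B (adjusted p = 0.000411). Sdc1, a syndecan whose heparan sulfate chains bind chemokines, was at 2.0 ± 1.6 CPM in the controls, 21.0 ± 5.48 for set A and 22.8 ± 8.94 for set B, and rose by 3.41 ± 0.55 (adjusted p = 0.000106) and 3.52 ± 0.55 (adjusted p = 7.84e-05). The sheddases of Cx3cl1 and Cxcl16 did not pass, with Adam10 at 307.0, 333.0 and 305.0 CPM in controls, set A and set B, and Adam17 at 26.7, 35.6 and 25.5 CPM.

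The other chemokine ligands were mostly at 0 too. Of 31 in the table, 24 had no count in any kidney, beside 39.3% of all genes in the count table. The filter was passed by 2, Cxcl14 and Ccl27a. Cxcl14, a chemokine of epithelia, was at 39.2, 36.9, 49.6 and 28.4 CPM in the controls, at 186.0, 94.9, 200 and 31 CPM in set A and at 57.0, 83.2, 87.5 and 10.1 CPM in set B. In both sets, replicate 4 was the lowest and lay within or below the controls. Cxcl14 rose in set A by 1.73 ± 0.51 on the log2 scale (adjusted p = 0.0168, edgeR's quasi-likelihood test), and in set B it gave 0.63 ± 0.5 (adjusted p = 0.449). The call in set A was lost in limma-trend (1.44, adjusted p = 0.0702) and without control replicate 4, set A replicate 1 or set A replicate 3 (adjusted p between 0.0536 and 0.0688). Set B differed from set A by -1.11 ± 0.5 for Cxcl14, with an unadjusted p of 0.0386 and an adjusted p of 0.98.

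Genes of the signalling chain below the receptors were described from a list of 33. Of these, 32 were tested, and 13 rose and 0 fell in set A and 12 rose and 0 fell in set B, and the medians on the log2 scale were 0.42 and 0.34 beside -0.02 over all genes tested. As background, 10.5% of all genes tested rose in set A and 10.9% rose in set B. Rgs2, which shortens G protein signals, was at 7.24 ± 1.83 CPM in the controls, 43.1 ± 8.87 for set A and 41.2 ± 10.2 for set B (adjusted p = 6e-07 and 8.81e-07, edgeR's quasi-likelihood test). Stat3, a transcription factor of cytokine responses, rose from 213.0 ± 23.6 CPM to 592.0 ± 64.5 in set A (adjusted p = 8.58e-08) and 610.0 ± 92.5 in set B (adjusted p = 6.36e-08). The receptor kinase Grk5 (1.21 and 1.3 on the log2 scale) passed in both sets. All these genes serve many other receptors as well.

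Of 25 genes of NF-kB and the cytokines that induce chemokines, Tnf, Il1a, Il6, Il18, Sele and Selp had no count in any kidney, and 13 were tested. In each set, 5 rose and 0 fell, the same genes in both, namely Nfkbiz, Nfkb2, Nfkb1, Rela and Nfkbia, beside 10.5% and 10.9% of all genes tested that rose, and the median of the 13 was 1.7 for set A and 1.47 for set B. DESeq2 called 8 of the list in set A, and set B had between 4 (without control replicate 3 or 4 or set B replicate 3) and 7 (without set B replicate 4). Nfkbiz, an inducible cofactor of NF-kB, rose by 2.7 ± 0.44 on the log2 scale in set A (adjusted p = 0.000113, edgeR's quasi-likelihood test) and by 2.7 ± 0.44 in set B (adjusted p = 0.000111). The subunit Nfkb1 ranged from 7.91 to 12.1 CPM in the controls, set A from 25.9 to 40.0 and set B from 25.3 to 34.0, so neither set overlapped them. Nfkb2 gave 2.16 ± 0.34 and 1.92 ± 0.34, and Rela, the activating subunit, 1.36 ± 0.24 and 0.96 ± 0.24. Nfkbia, the inhibitor that NF-kB itself induces, rose by 0.72 ± 0.16 in set A (adjusted p = 0.00233) and 0.54 ± 0.16 in set B (adjusted p = 0.0194), and the latter was lost without control replicate 2, 3 or 4 or set B replicate 3 (adjusted p between 0.0509 and 0.0867). The NF-kB target Vcam1 gave 1.77 in both sets and did not pass (adjusted p = 0.0719 and 0.072), and neither did Icam1. In these same kidneys, Cxcl1 and Cxcl2, which hold the kappaB letters shown above, were at 0 in 11 and 9 of 12 kidneys, and those with counts were ischemic. Csf1, the other member with these letters, had counts in 3 kidneys of set A and all 4 of set B against 1 control, with fold changes that did not pass, as given above. The activity of NF-kB was not measured, and a link between it and these members was not tested.

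**Figure D4:**
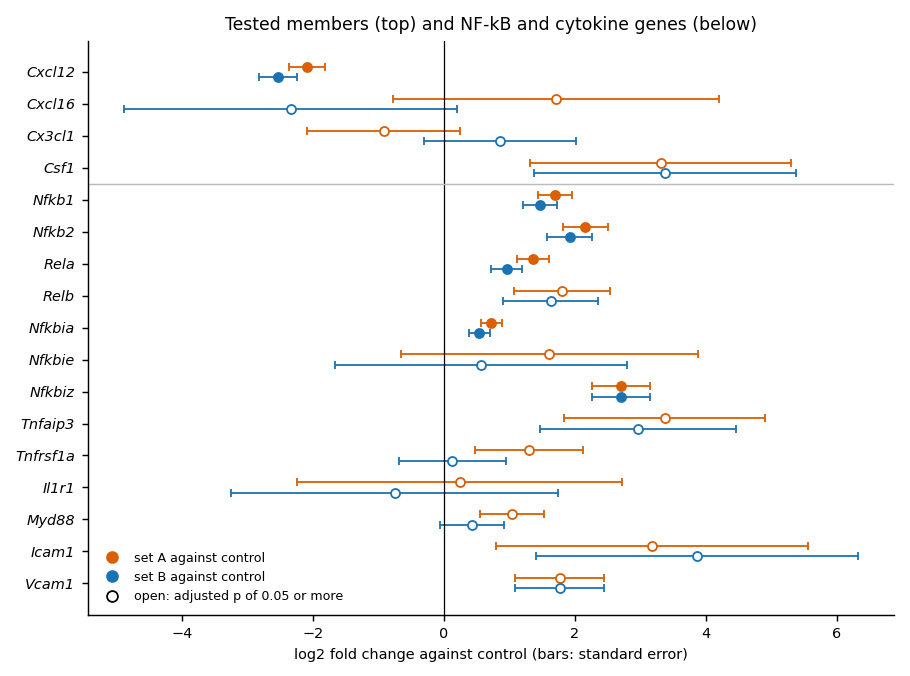
Log2 fold change against control (horizontal axis, bars for standard error) of the 4 tested members and of 13 genes of NF-kB and cytokine signalling, in set A and set B, with open points where the adjusted p is 0.05 or more. Cxcl12 lies left of 0 in both sets, while Nfkbiz, Nfkb2, Nfkb1, Rela and Nfkbia lie right of it with filled points.

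Interferon response genes, among which Cxcl10 is usually counted, were described from a list of 26, of which 9 had no count in any kidney and 11 were tested. In edgeR's quasi-likelihood test 0 of 11 passed in either set, beside 22.3% and 22.8% of all genes tested. DESeq2 called 1 of them in set B. An unadjusted p below 0.05 was found for 2 in each, and the median was -0.15 for set A and -1.0 for set B.

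The cells that chemokines attract were looked for by their markers. Of 11 neutrophil markers in the table, 7 had no count in any kidney, among them S100a8, Mpo, Elane and Ltf, and 0 passed the filter. Over the whole count table, 39.3% of genes had no count, and 81.3% of those under 1 kb, as S100a8 (0.694 kb) and Elane (0.984 kb) are. As given above, a 0 does not bound the level of a gene. The summed level of the 11 was 0 in each control, between 0 and 0.969 CPM for set A and between 0 and 2.67 CPM for set B. The list holds Cxcr2, and the highest sum is its level in set B replicate 4. Of 15 markers of monocytes and macrophages, Ly6c2, Ms4a7 and Cd163 had no count, 7 were tested, 1 rose (Cd14) and 1 fell (Csf1r) in each set, with 2 to 3 called in the other fits for set A, and for set B 1 in the fit of only control and set B. The macrophage receptor Mrc1 was at 5.57 ± 2.63 CPM in the controls, 0.928 ± 0.718 for set A and 2.22 ± 1.78 for set B, and gave -2.58 (adjusted p = 0.0936) and -1.33 (adjusted p = 0.43), which did not pass. Their summed level was between 51.9 and 72.0 CPM in the controls, between 14.7 and 32.4 CPM for set A and between 13.0 and 38.2 CPM for set B. In the controls, most of that sum was Csf1r, with a mean of 52.1 of 60.2 CPM. The mean of Csf1r was 13.5 of 23.2 CPM in set A and 10.5 of 21.2 CPM in set B. The 14 other markers summed to between 4.57 and 11.2 CPM in the controls, between 6.76 and 14.5 CPM in set A and between 7.24 and 18.7 CPM in set B. The median log2 fold change of the 7 tested was 0.54 in set A, while set B gave 1.09. Cd14, the lipopolysaccharide co-receptor, had no count in any control. Set A had 348, 48, 164 and 32 counts of it, set B 107, 14, 160 and 0. Cd14 passed as higher in both sets (adjusted p = 0.00164 and 0.0024, edgeR's quasi-likelihood test). Of 12 markers of T and NK cells, 10 had no count in any kidney. Cd3e, a chain of the T cell receptor complex, had 23, 182, 18 and 30 counts in the controls and none in the 8 ischemic kidneys (adjusted p = 0.0412 and 0.0472). These calls were lost in most fits without 1 kidney (adjusted p up to 0.135 and 0.147) and with the replicate number as a block (0.128 and 0.14). Lck, the other tested marker of this list, gave -0.42 in set A (adjusted p = 0.925) and 0.08 in set B (adjusted p = 0.988). The summed level of the 12 overlapped between groups, at 1.83 to 5.23 CPM in the controls, 0 to 3.19 CPM for set A and 0 to 3.48 CPM for set B. Of 5 B cell markers, 4 had no count. Of 7 platelet and erythroid markers, 2 were tested, and Alas2, an erythroid enzyme of heme synthesis, was lower in set B (adjusted p = 0.0266) and did not pass in set A (adjusted p = 0.311). The call in set B was lost with the replicate block and without control replicate 3 or set B replicate 1, 2 or 3. The hemoglobin genes Hbb-bs and Hba-a1, of the same list, had no count in any kidney.

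Markers of the cell types that make Cxcl12 at rest were set beside its fall. As background, 11.7% of all genes tested were lower and 10.5% higher in set A, and 11.9% were lower and 10.9% higher in set B. The summed level of 9 endothelial markers was between 179 and 233 CPM in the controls, between 103 and 178 CPM for set A and between 95.9 and 184 CPM for set B, and 0 of the 8 tested passed in set A and 1, Tek, as lower in set B. In set A, Tek (-0.84 ± 0.32, adjusted p = 0.0696) passed in 4 of 7 other settings, with adjusted p between 0.0131 and 0.041. At an unadjusted p below 0.05, 3 of the 8 were counted in set A. The summed level of 7 stromal markers was between 525 and 722 CPM in the controls, between 1390 and 3690 CPM for set A and between 1650 and 3110 CPM for set B, and 3 of the 5 tested (Col3a1, Col1a1 and Acta2) were higher in both. The fibroblast and pericyte receptors Pdgfra (-0.41 and -0.53) and Pdgfrb (0.4 and 0.19) did not pass. Of 9 tubule markers, 6 fell in set A and 5 fell in set B, Slc34a1, Lrp2, Aqp1 and Slc12a1 among them, while Umod (0.16 in both), Aqp2 (0.26 and 0.51) and Slc12a3 (-0.22 and -0.14) did not pass. The part of endothelial, stromal and tubular cells in the fall of Cxcl12 was not tested.

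The genes whose pattern was nearest to each tested member were found among 9369 genes, by the root mean square difference of log2 CPM, taken relative to the control mean, over the 12 kidneys. For Cxcl12 these were Cd74, the invariant chain of MHC class II, with a difference of 0.35, and Csf1r with 0.41. Cd74 was at 56.0 ± 14.6 CPM in the controls, 10.7 ± 5.13 for set A and 8.78 ± 2.68 for set B. The nearest to Csf1 were Atp10a (0.92) and Lhfpl2 (0.98), to Cx3cl1 Chchd6 (0.77) and Apip (0.97), and to Cxcl16 Apba1 and Loxl1 (both 1.23).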

How the data were processed

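Stranded mRNA libraries of 12 kidneys were sequenced as single reads. The authors mapped the reads with STAR to mm10, obtained a table of raw counts for each gene from HTSeq, and this table was deposited without normalization (versions and annotation are not given in the sources used here). Total counts per kidney ranged from 15367342 to 44793350. Columns of samples left unused numbered 0.

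As in the methods of the study, edgeR was used (version 4.0.16, under R 4.3.3). The filter of edgeR (minimum count 10, minimum total 15) kept 11664 of 23420 genes, and TMM scaled the libraries. All 12 kidneys entered a single fit of 3 groups and its quasi-likelihood F-tests, which are two-sided. P-values were adjusted after Benjamini-Hochberg across the tested genes, and the threshold was 0.05. Standard errors are the log2 fold change divided by the root of its F statistic. CPM used the TMM-scaled totals, and log2 CPM a prior count of 2. Medians of gene lists cover tested genes only. The procedure was tested on simulated data from a negative binomial model, in which the zeros beside sizeable counts were not modelled. That run therefore gives no measure of the calls at low counts. Each kidney was taken as 1 mouse, after the design text of the series. No 2 replicates agreed within sampling noise (the lowest chi-square per degree of freedom was 48.9).

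The members and gene lists were chosen with earlier results of these data known. Genes named are all members, their receptors, called genes of the lists with the largest changes first, defining leukocyte markers and the 2 nearest patterns of each tested member. Icam1, Vcam1, Adam10, Adam17, Mrc1, Itgam, C1qb, Adgre1, Cd68, Pdgfra, Pdgfrb, Umod, Aqp2 and Slc12a3, which did not pass, were also named after their values were seen. So were the calls of Ext1 and Sdc4 and genes at 0. Ly6g and 1 other chemokine ligand of the lists were not found by symbol. The list of other chemokine receptors is not reported here, apart from Ackr3, and of 7 tubular injury markers only Havcr1 is described. Exon lengths and positions came from GENCODE M21, promoters from RefSeq. The alternatives were DESeq2 1.42.0, limma-trend (limma 3.58.1), RLE factors, no filter, a minimum of 1 CPM exceeded in 4 kidneys or more, a fit of the 2 groups in question, a replicate block, and leaving out each kidney. Python 3.11.15, NumPy 2.4.6, pandas 2.3.3 and matplotlib 3.10.9 were used.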

Additional observations from a re-analysis of the deposited data

Results flagged for a closer look

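In 11 of 33 group values examined, 1 kidney stood far from the other 3 of its group, by a distance that flags about 1 in 20 groups of continuous values. It flags every group with 3 kidneys at 0 and 1 above it, which was so in 10 of these 11, so their number cannot be set against chance. The exception was Cxcr2 in set B, where replicate 1 had 12 counts. Among the members, these were Cxcl1 in set A (0.639 CPM in replicate 3), Cxcl2 in set B (0.236 CPM in replicate 1), Cxcl10 in the controls (0.309 CPM in replicate 3), Cxcl16 in the controls (0.805 CPM in replicate 2) and in set B (0.135 CPM in replicate 1), and Csf1 in the controls (0.731 CPM in replicate 4). Among the receptors, they were Ccr2 in the controls (0.468 CPM in replicate 2) and in set A (0.617 CPM in replicate 3), Cxcr2 in set A (0.529 CPM in replicate 3) and in set B (2.67 CPM in replicate 4), and Cx3cr1 in set B (0.269 CPM in replicate 1).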

How the results depend on the processing

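Cxcl12 stayed lower and past the threshold in both sets under all 7 other settings and in all 12 fits without a kidney, with values without 1 kidney of -2.27 to -1.87 for set A and of -2.69 to -2.44 for set B. Members called were 1 to 2 in either set without 1 kidney, with 2 without control replicate 4, and 2 in set B in limma-trend, Csf1 being the member added. Receptors called were 2 in each set in DESeq2 and in limma-trend, Cxcr4 being added. The alternatives were recomputed for 30 genes against control (the tested members and receptors and part of the called genes of the lists, without the tubule markers, Alas2 and genes that did not pass in either set other than members and receptors) and for 7 of them between the sets. Over these 1265 values, 1192 kept direction and side of the threshold, 46 lost the call, 16 gained it and 11 changed sign. The sign changes without 1 kidney were Cxcl16 in set B against control (-5.48 to 3.09, turned without control replicate 2), Csf1 in set B against set A (-0.36 to 1.55, turned without set A replicate 2, 3 or 4 or set B replicate 1) and Cxcr4 in set B against set A (-0.54 to 0.19, turned without set A replicate 1 or 4 or set B replicate 1, 2 or 3). The cause was not tested. Genes called between the sets numbered 1, against 6 without a filter, 27 in DESeq2, 0 in limma-trend, 0 with only those groups, and 0 to 7 without 1 kidney.

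Same-numbered kidneys did not deviate together (correlations between -0.0554 and 0.0452), so the numbers do not pair them. With the replicate block, 1 member was called in each set and 0 between the sets, 2491 and 2531 genes passed in sets A and B, Cxcr4 in set B against set A turned to 0.04, and Il34 in set A was lost (1.87, adjusted p = 0.0638), as it was without a filter (1.93, adjusted p = 0.0655).

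For Csf1 and Cxcl16, counts in 1 control kidney decide the value, and for Csf1 in set A so do those of set A replicate 1 (1.84 without it). The part of depth in the members and receptors at 0 was not tested.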
